A study of Oryza sativa Japonica Group with 30 samples.

Results

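The seed allergen albumins of rice are small, disulfide-rich proteins of the alpha-amylase/trypsin inhibitor family that accumulate in the grain. Proteins of this family have been described as rice allergens, and several were given the names RA (rice allergen) or RAG. They form part of the water-soluble and salt-soluble protein of the seed, beside the glutelins, the most abundant storage proteins of the endosperm. Of the genes examined here, RAG2 encodes a member of the family, and its overexpression in rice has been linked to larger grain.

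The 5 genes described here are those with the identifiers LOC_Os07g11330, LOC_Os07g11360, LOC_Os07g11380, LOC_Os07g11410 and LOC_Os07g11510, all on chromosome 7, out of 55801 gene identifiers in the deposited tables. They were chosen by identifier, as a tandem group of that family. LOC_Os07g11380 is RAG2. That pairing, and the family of the other 4 genes, rest on general knowledge, because the tables give no names and 0 of the 39387 genes of the RefSeq table (assembly ASM3414082v1) carry a LOC_Os identifier. The RefSeq synonyms were searched for RA or RAG followed by a number. This found 4 genes, all 4 on chromosome 7. Other names of the family were not searched for, so 4 is not a count of the family. In RefSeq order RA17 (also named RAG1) is followed directly by RA14 (also named RAG2) and then by RA16. RA5 comes after 3 further genes, 1 of which is named CHS2. Apart from RAG2, these names were not paired with the LOC_Os identifiers. The genome build behind the identifiers is not given in the sources used here, so no coordinates are printed.

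The RNA came from whole unripe caryopses, which include the fruit coat around the young grain, collected 7 days after pollination. The 30 samples formed 10 groups of 3. The genotypes were lines overexpressing ONAC127 or ONAC129 (OX-ONAC127 and OX-ONAC129), mutant lines of either gene (CR-ONAC127 and CR-ONAC129) and the wild type ZH11. ONAC127 and ONAC129 encode NAC transcription factors. The promoter of the overexpression constructs, the mutant alleles and the number of independent lines are not given in the labels. Each genotype was grown in paddy fields under natural heat stress (H), with about 6 h a day above 35 °C and peaks near 40 °C, or under normal cultivation (N), with 3 days above 35 °C and daytime temperatures that averaged about 30 °C.

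Levels per sample, differences between the lines and ZH11, and the effect of heat are not analysed here. The 8 tables, each named for a line against ZH11 under 1 condition, held the same single column. For each gene it gives normalised read counts averaged over all 30 samples. Each group of 3 contributes 10% of the weight of that mean, and each growing condition 50%. No SD between samples can be attached to it, and no value below says how the albumin genes responded to genotype or temperature.

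The depth behind the pooled means could still be recovered. The smallest pooled means were built from 30 different units. Each unit is what a single library's read adds to the mean, between 0.0203 and 0.0605 normalised counts. All 6722 values above 0 and up to 0.12 were whole sums of these units. An albumin gene's value therefore corresponds to a lowest and a highest possible number of reads, and to an upper bound on the SD that read counting alone gives the pooled mean. This bound treats reads as independent molecules, which PCR copies are not, and it leaves out the spread between plants and samples.

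All 5 albumin genes were strongly read in the caryopsis. Together they summed to 118207 normalised counts, 1.02% of the total of 11614572, while making up 0.00896% of the gene identifiers. The bound on the counting SD of the sum was 84.5 normalised counts, from between 1954841 and 5830825 reads. Close copies of a gene can share reads, and how the authors' counting treated such reads is not given in the sources used here, so the sum is firmer than its division among the genes. The sum was 1.53 times the highest single gene of the whole profile, which had 77413 normalised counts. No correction for gene length was made, so this and the following ratios compare reads and not numbers of transcripts.

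LOC_Os07g11510 had the highest pooled mean of the 5 genes, 46050 normalised counts, with a counting SD of at most 52.8. It ranked 13 among all genes and 1 on chromosome 7, and it held 39.0% of the sum of the 5 genes. Its value rests on at least 761553 reads.

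RAG2 (LOC_Os07g11380) followed with 28180 normalised counts and a counting SD of at most 41.3. It ranked 25 among all genes and 3 on chromosome 7, and contributed 23.8% of the albumin sum from at least 466020 reads. LOC_Os07g11510 had 1.63 times as many normalised counts as RAG2.

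LOC_Os07g11410 and LOC_Os07g11330 stood close together. LOC_Os07g11410 had 19879 normalised counts, rank 46 and 16.8% of the sum, and LOC_Os07g11330 had 19609, rank 48 and 16.6% of the sum. They differed by 270 normalised counts, a ratio of 1.01, where the counting SD of the difference is at most 48.9. The difference is thus larger than counting error, but the spread between samples is unknown, and reads shared between close copies could shift either value, so their order was not established. RAG2 had 1.42 times as many normalised counts as LOC_Os07g11410.

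LOC_Os07g11360 was the lowest of the 5, with 4490 normalised counts and a counting SD of at most 16.5. It still ranked 389 among all genes and 37 of the 4450 on chromosome 7, above 99.3% of all identifiers. It contributed 3.80% of the albumin sum, from at least 74247 reads. LOC_Os07g11330, next above it, had 4.37 times its normalised counts, the largest ratio between neighbours in the order of the 5 levels. LOC_Os07g11510 had 10.3 times the normalised counts of LOC_Os07g11360.

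**Figure D1:**
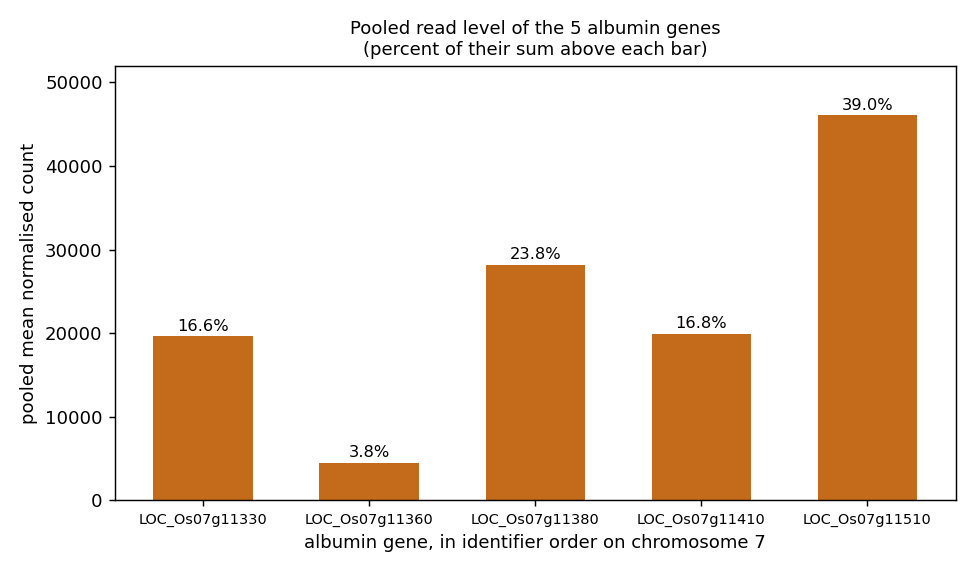
Pooled mean normalised count (vertical axis, from 0) of each of the 5 albumin genes in identifier order on chromosome 7, with its percentage of their sum above the bar. Bars are single pooled values over 30 samples, so they carry no error bar; LOC_Os07g11510 is the highest at 46050 and LOC_Os07g11360 the lowest at 4490.

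The order of the levels along the chromosome did not run in 1 direction. In identifier order the first gene had 19609 normalised counts, the second 4490, the third (RAG2) 28180, the fourth 19879 and the last 46050. The lowest gene thus lay next to RAG2, and the highest was the one set farthest apart, with 8 other identifiers between it and LOC_Os07g11410.

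The identifiers lying between the albumin genes were almost unread. From the first to the last albumin gene the tables list 18 identifiers, and the 5 albumin genes held 99.5% of the normalised counts of that stretch. Of the 13 others, 7 were listed at 0, which means no read in any library, and 5 lay above 0 but below 1. LOC_Os07g11370 and LOC_Os07g11480 each had 1 read over all libraries, LOC_Os07g11440 had 3 and LOC_Os07g11420 had 5. LOC_Os07g11400 had 0.527 normalised counts. A listed 0 holds no read. The worth of 3 reads in the shallowest library, 0.181 normalised counts, was taken as a cautious upper limit on the level behind it.

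LOC_Os07g11490 was the exception among the 13. The albumin gene LOC_Os07g11510 had 46050 normalised counts, and LOC_Os07g11490, close beside it, had 620. Just outside the stretch, LOC_Os07g11320 had 0.665 normalised counts and LOC_Os07g11520 was listed at 0. Most identifiers between the albumin genes were as low, so these flanking values mark no edge. The ends of the stretch were set by the choice of the albumin genes. LOC_Os07g11310, a further place outward from LOC_Os07g11320, had 1910 normalised counts. LOC_Os07g11310 was named after its value was seen.

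**Figure D2:**
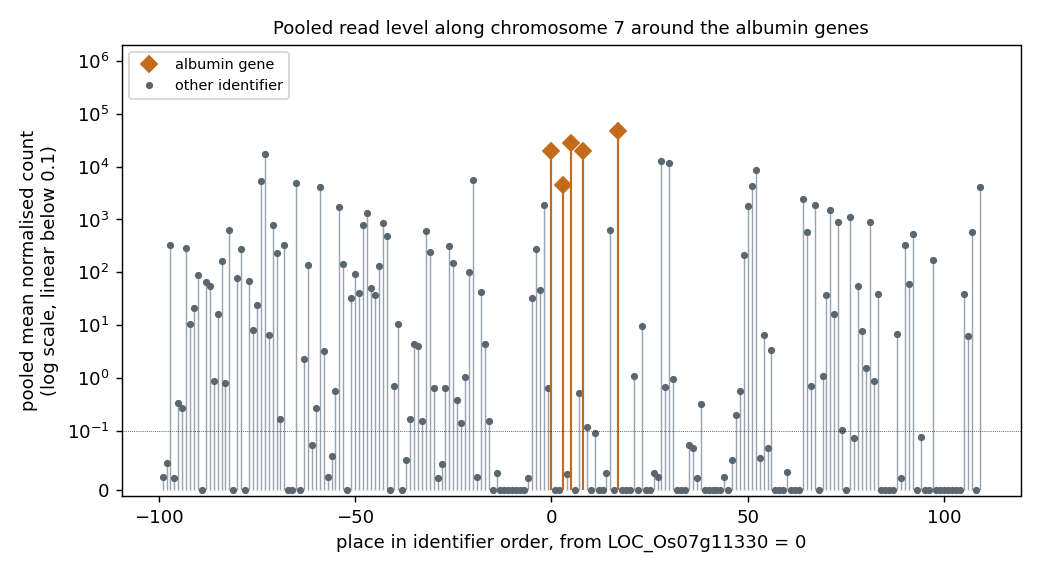
Pooled mean normalised count (vertical axis, log scale, linear below the dotted line at 0.1) of the 5 albumin genes (diamonds) and of 204 neighbouring identifiers (dots), against their place in identifier order on chromosome 7 (horizontal axis, LOC_Os07g11330 at 0). The albumin genes stand between 4490 and 46050, and most of the identifiers between them lie below 1.

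A wider neighbourhood, reaching 1000 locus numbers beyond the first and the last albumin gene, held 204 other identifiers. The 5 albumin genes had a median of 19879 normalised counts, and these neighbours had a median of 0.368. The neighbours' median depended on which were counted: it was 0.0965 within 500 locus numbers, 0.696 within 2000, and 10.2 over the neighbours above 0 alone. All identifiers of chromosome 7 had a median of 0.793, and the whole profile had a median of 1.23. Of the neighbours, 62 (30.4%) were listed at 0, near the 26.8% of all identifiers, and 18 of the 204 reached 1000 normalised counts. Among all 55801 identifiers, rank 2068 had 1019 normalised counts and rank 2143 had 983. The neighbours thus held a larger share of genes at that level than the whole profile. All 204 lay below LOC_Os07g11330, the second lowest albumin gene, while 7 lay above the lowest, LOC_Os07g11360. The 5 albumin genes held 52.8% of the summed normalised counts of the whole neighbourhood.

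The highest of the neighbours were LOC_Os07g10580 with 17159 normalised counts and LOC_Os07g11630 with 12943. LOC_Os07g11650, named after its value was seen, had 11682. Neither the tables nor the reference name these identifiers, so whether any of them belongs to the albumin family was not examined.

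Over the genome, the stretch from the first to the last albumin gene had the highest summed level of all 55597 stretches of 18 consecutive identifiers, at 118828 normalised counts. The highest stretch elsewhere, on chromosome 5, had 82866, so the albumin stretch had 1.43 times its sum. The next, on chromosome 1, had 78175 and contains the glutelin gene GluA1. The comparison of stretches was not planned beforehand, and the length of 18 was set by the albumin genes themselves. The rank is therefore only a description of this profile. With stretches of 30, 50 or 100 identifiers, the highest one that held all 5 albumin genes also ranked 1, at 1.51, 1.54 and 1.21 times the highest stretch that did not overlap it.

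On chromosome 7 the albumin genes were 0.112% of the identifiers and held 12.1% of the normalised counts. Of the 14 genes of the chromosome at or above 10000 normalised counts, 4 were albumin genes, with ranks 1, 3, 5 and 6 on that chromosome. In the whole profile 140 genes reached 10000, or 0.251% of the identifiers, and LOC_Os07g11360 was the albumin gene outside them.

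Set beside 7 listed glutelin genes, the albumin genes had the lower sum. The 5 albumin genes summed to 118207 normalised counts, and the 7 glutelin genes to 254603, a ratio of 0.464. It rests on unequal numbers of genes and is not corrected for length. The 7 were a chosen list that was not checked for completeness, so the ratio and the medians below cover the listed genes only. LOC_Os07g11510, with 46050, lay between GluA2, with 47812, and GluA3, with 42080. RAG2, with 28180, lay above GluB5, with 14680, GluB4, with 13081, and GluD1, with 8056. LOC_Os07g11360, with 4490, lay below all 7 glutelin genes, which ranged up to 66984 for GluC1. The medians were 19879 normalised counts over the 5 albumin genes and 42080 over the 7 glutelin genes. The glutelin loci were paired with their names from general knowledge, and RefSeq has a gene under the same name on the same chromosome for 6 of the 7, GluC1 being the other.

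Genes that act on seed storage protein genes or fold their products were read at levels within or below the albumin range. RPBF, a DOF-type activator of storage protein genes, had 20001 normalised counts, between RAG2 and LOC_Os07g11410. NAC26 and NAC20, NAC factors of the endosperm, had 12059 and 9389, and NF-YB1, a subunit of an endosperm transcription factor complex, had 4991, close above LOC_Os07g11360. bZIP58, a further activator of storage protein genes, had 2229 and lay below all 5 albumin genes. In the endoplasmic reticulum, where disulfide-bonded seed proteins fold, the disulfide isomerase PDIL1-1 had 20924 and the chaperone BiP1 had 20781. These values describe levels only: a pooled mean holds no relation across samples between a regulator and an albumin gene. Of these 7 names, RefSeq has NF-YB1, BiP1 and PDIL1-1 on the same chromosome, and the other 4 rest on general knowledge.

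**Figure D3:**
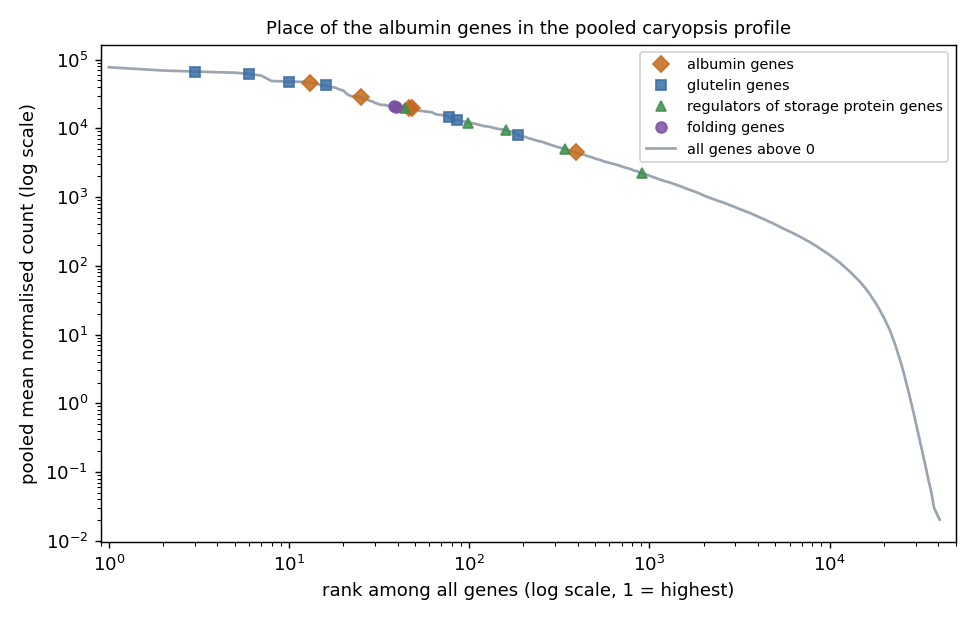
Pooled mean normalised count (vertical axis, log scale) against rank among all genes (horizontal axis, log scale) for every gene above 0 (line), with the 5 albumin genes, 7 glutelin genes, 5 regulators and 2 folding genes marked. The albumin genes take ranks 13, 25, 46, 48 and 389.

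The samples are labelled as caryopsis, and markers of its parts were all read at high levels. GBSSI, a starch synthase of the starchy endosperm, had 39906 normalised counts. The oleosins Ole16 and Ole18, of embryo and aleurone, had 24670 and 21160, and LHCB1, of the green fruit coat, had 10679. RefSeq has GBSSI and Ole18 on the same chromosome, while Ole16 and LHCB1, the only fruit coat marker, were not found there by name and rest on general knowledge. Whole caryopses were sequenced, so the part of the grain that gave the albumin reads is not known, and more cells of a type and more RNA per cell cannot be told apart.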

How the data were processed

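Total RNA of rice caryopses was sequenced in 30 samples, grouped by their titles. CASAVA 1.7, the aligner HISAT2 2.0.5 and DESeq2 are the tools listed in the submitters' processing notes. Which program counted the reads, with which strand setting, build and annotation, is not given in the sources used here. Per the file headers, the 8 deposited tables hold a gene identifier and a baseMean, treated as a signal: the authors' mean over all samples of counts divided by size factors. All 8 are identical.

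With 0 columns of single samples, no test was run. Ranks, shares, sums and medians were computed over all 55801 identifiers in Python 3.11.15 (pandas 2.3.3, numpy 2.4.6), and figures drawn with matplotlib 3.10.9. The worth of 1 read per library was taken from values below 0.065 that no sum of smaller units equals within 1e-11, a procedure checked on simulated data in which the upper bound was set from the known size factors. Size factors ran from 0.551 to 1.64. The counting SD is at most the square root of the value times the highest worth of 1 read. Chromosomes were read from the identifiers.

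The genes and lists were chosen with earlier results of these data known. The rule for named genes took all 5 albumin genes, the identifiers between them, the 2 highest neighbours and the listed glutelin, regulator and folding genes. No protein or DNA sequence was used.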

Additional observations from a re-analysis of the deposited data

How the results depend on the processing

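A pooled mean limits every value: it has no spread between samples, and leaving out samples or testing genotypes was not possible. No paired analysis was possible because no column holds a single replicate. The albumin sum of 118207 normalised counts became 72157 without LOC_Os07g11510, 90027 without RAG2 (LOC_Os07g11380), 98329 without LOC_Os07g11410, 98598 without LOC_Os07g11330 and 113717 without LOC_Os07g11360. Each omission lowers the sum by the omitted gene's own value, so a fall was certain, and it was largest without LOC_Os07g11510. All 5 of these values were larger than the counting SD bound of the sum, 84.5 normalised counts. The percentile of the lowest albumin gene, 99.3 among all genes, was 99.0 among genes above 0, 98.2 among genes of at least 10 normalised counts and 99.2 on chromosome 7. The median of the neighbours, 0.368, was 0.0965 within 500 and 0.696 within 2000 locus numbers, and 10.2 over neighbours above 0 only. The ratio of the albumin sum to that of the listed glutelin genes, 0.464, was 0.521 without GluB4 and GluB5, the only GluB genes on the list. The whole comparison of stretches was added after seeing the data, as were its lengths of 30, 50 and 100 identifiers.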
